A study of Mus musculus with 6 samples.

Results

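The cytosolic chaperonin CCT, also called TRiC, is described here through the genes of its 8 subunits, Tcp1, Cct2, Cct3, Cct4, Cct5, Cct6a, Cct7 and Cct8, in mouse liver tumors. The members were found by symbol and are 8 of the 24063 genes of the raw count table, and all 8 were among the 13572 genes with enough counts to be tested. They were chosen from measured values of the same comparison, because the chaperonin pathway was higher in tumors lacking Nr2e3, so their differences between genotypes are given as a description without a test. RNA-seq had been performed on liver tumor tissue of 3 wild-type (WT, NR2E3+/+) and 3 Nr2e3-/- mice. All were male and labelled C57BL/6, and both groups had received the hepatocarcinogen diethylnitrosamine (DEN) at 25 mg/kg at 15 days of age and were sampled at the 24-week time point. No tumor from untreated mice and no non-tumor liver was compared. The promoter or construct behind the Nr2e3-/- allele is not given in the sources used here. The p-values given for other genes measure the spread between these mice, with 1 library for each.

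CCT is a pair of stacked rings, each with a single copy of every subunit, and it closes around unfolded proteins and releases them folded in a cycle driven by ATP. Actin and tubulin are its best known clients, and many proteins with WD repeats also depend on it. Prefoldin and the Hsp70 chaperones hand substrates to it, and phosducin-like proteins bind it as cochaperones. In the liver, as in other tissues, the subunit genes are expressed in nearly every cell type.

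The libraries held 15376261 to 28690279 counts, the lowest in Nr2e3-/- replicate 1. Nr2e3 itself had 0 counts in all 6 libraries, which allows at most 3 counts or 0.101 to 0.199 CPM per library, so the genotype labels could not be checked by the targeted gene. Nr2e3-/- replicate 1 stood apart from its group. Over all genes tested its root mean square distance on the log2 scale was 0.506 to 0.60 from the WT libraries but 0.80 and 0.63 from Nr2e3-/- replicates 2 and 3, whereas the WT libraries were 0.392 to 0.421 from each other. Values without it, or without any other library, are given where they differed by more than 1.5-fold. Hepatocyte markers dominated every library, with Alb at 84013 to 130236 CPM. In bulk tissue, fewer cells of a type and less RNA per cell cannot be told apart.

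All 8 subunit genes were higher in Nr2e3-/- than in WT tumors, and for none did the 2 groups overlap. The differences ran from 18.1% for Cct8 to 59.9% for Cct3, and the median log2 fold change of the 8 was 0.36 against 0.01 for all genes tested. Among the 13572 genes, 13.9% had all Nr2e3-/- libraries above all WT libraries, and nothing is read from the count of members because they were selected on this contrast. Levels are given as CPM, the counts of a library scaled to a common total with normalization by the trimmed mean of M values. Fold changes are log2 ratios of Nr2e3-/- over WT fitted by edgeR, with standard errors (SE).

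Cct3, the gamma subunit (chr3:88297116-88321767, plus strand), had 91.4, 86.8 and 82.5 CPM in the WT libraries and 121.8, 144.0 and 151.2 CPM in the Nr2e3-/- libraries. The means were 86.9 ± 4.43 and 139.0 ± 15.3 CPM (SD, n = 3 each), with a log2 fold change of 0.68 (SE 0.12). Cct3 had the largest difference of the 8 with the main processing and with every alternative, and its lowest Nr2e3-/- library lay 30.4 CPM above its highest WT library. Cct7, the eta subunit (chr6:85451514-85468475, plus strand), came next in every setting. It had 101.0, 86.6 and 96.2 CPM in WT and 123.6, 144.4 and 143.7 CPM in Nr2e3-/- tumors, with means of 94.6 ± 7.36 and 137.3 ± 11.8 CPM (SD, n = 3 each) and a log2 fold change of 0.54 (SE 0.11). Nr2e3-/- replicates 2 and 3 were nearly level, while replicate 1 sat closer to WT.

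The promoters of Cct3 and Cct7, whose levels differed most, are shown beside that of Cct8, whose level differed least, and that of Cct2, whose windows both lay wholly outside annotated exons. They are the RefSeq sequences of build GRCm38.p6 before the annotated transcript start, cut to the longest stretch free of exons in GENCODE vM21, and are written 5′ to 3′ on the strand of the gene. Cct3 is at chr3:88297000-88297115 on the plus strand, Cct7 at chr6:85451284-85451504 on the plus strand, Cct8 at chr16:87495874-87495998 on the minus strand and Cct2 at chr10:117063853-117064102 on the minus strand. The Cct2 window not shown, at chr10:117063376-117063625, held 1 match to GGGCGG, against 4 in the window shown. Capitals mark a match to GGGCGG, the GC box core bound by Sp1 family factors, or to CCAAT, the box bound by NF-Y, in either orientation, so that CCGCCC and ATTGG are the same motifs read on the other strand.
Cct3: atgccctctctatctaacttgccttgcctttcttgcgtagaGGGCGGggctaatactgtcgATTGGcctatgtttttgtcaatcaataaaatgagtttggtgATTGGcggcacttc
Cct7: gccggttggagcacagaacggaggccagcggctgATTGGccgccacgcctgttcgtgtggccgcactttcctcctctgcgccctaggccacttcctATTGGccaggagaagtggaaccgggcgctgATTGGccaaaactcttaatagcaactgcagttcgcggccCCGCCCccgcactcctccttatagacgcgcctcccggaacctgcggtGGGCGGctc
Cct8: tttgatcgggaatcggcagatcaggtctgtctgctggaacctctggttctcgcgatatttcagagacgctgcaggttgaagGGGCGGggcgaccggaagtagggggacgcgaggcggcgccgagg
Cct2: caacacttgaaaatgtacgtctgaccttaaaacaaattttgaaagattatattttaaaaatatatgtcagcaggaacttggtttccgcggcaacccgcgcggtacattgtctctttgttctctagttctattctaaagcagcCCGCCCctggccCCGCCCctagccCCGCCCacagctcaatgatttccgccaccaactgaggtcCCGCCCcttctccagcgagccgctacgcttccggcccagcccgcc

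Promoter entries were found for 7 of the 8 members, as 9 windows of 250 bases before a start site, since Cct2 and Cct5 have 2 starts each. The counts below used whole windows, without cutting annotated exons. The windows of Tcp1 and Cct6a held 0 exon-free bases, and the longest exon-free stretches of the Cct5 windows were 61 and 5 bases. GGGCGG occurred on either strand in 8 of the 9 windows, compared with 32.7% of the 32851 windows of 27025 genes. CCAAT occurred in 4 of the 9, compared with 33.9% of all windows. The E-box CACGTG was in 0 of the 9 and in 6.02% of all windows, and the TATA box TATAAA in 0 of the 9 and in 12.4% of all. The paired heat shock elements GAANNTTC and TTCNNGAA, each the same on both strands and able to overlap the other, were each in 1 of the 9 windows and in 6.69% and 7.17% of all. Member windows had 45.2% to 66.8% G and C, with a median of 52.4% over all windows. These matches describe letters in a window and not binding.

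Cct2, the beta subunit (chr10:117051001-117063814, minus strand), had 122.2, 122.1 and 123.0 CPM in WT and 143.1, 173.5 and 172.7 CPM in Nr2e3-/- tumors. The WT libraries were almost identical, with a mean of 122.4 ± 0.530 CPM (SD, n = 3), and the log2 fold change was 0.41 (SE 0.11). Cct5, the epsilon subunit (chr15:31590800-31601804, minus strand), behaved alike, with 137.5, 136.5 and 133.1 CPM in WT and 160.1, 182.0 and 195.6 CPM in Nr2e3-/- tumors and a log2 fold change of 0.40 (SE 0.11). These and the next member had WT spreads that were narrow beside the gap to the Nr2e3-/- libraries. Cct6a, the zeta subunit (chr5:129786998-129846371, plus strand), had 132.7, 131.2 and 133.6 CPM in WT and 156.4, 164.7 and 176.9 CPM in Nr2e3-/- tumors (log2 fold change 0.33, SE 0.097).

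The smallest differences were found for Cct4, Tcp1 and Cct8. Cct4, the delta subunit (chr11:22990519-23003780, plus strand), had 102.0, 96.8 and 107.9 CPM in WT and 115.1, 134.2 and 128.3 CPM in Nr2e3-/- tumors (log2 fold change 0.30, SE 0.11). Its groups were separated by 7.21 CPM, the narrowest gap among the 8. Tcp1, the alpha subunit (chr17:12915701-12925067, plus strand), had 199.5, 209.4 and 201.8 CPM in WT and 229.8, 248.6 and 264.8 CPM in Nr2e3-/- tumors (log2 fold change 0.28, SE 0.10). Cct8, the theta subunit (chr16:87483326-87495873, minus strand), had 175.2, 182.9 and 173.6 CPM in WT and 196.8, 210.0 and 221.1 CPM in Nr2e3-/- tumors (log2 fold change 0.24, SE 0.10). Cct8 had the smallest difference in every setting except without WT replicate 2, where Cct4 did.

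**Figure D1:**
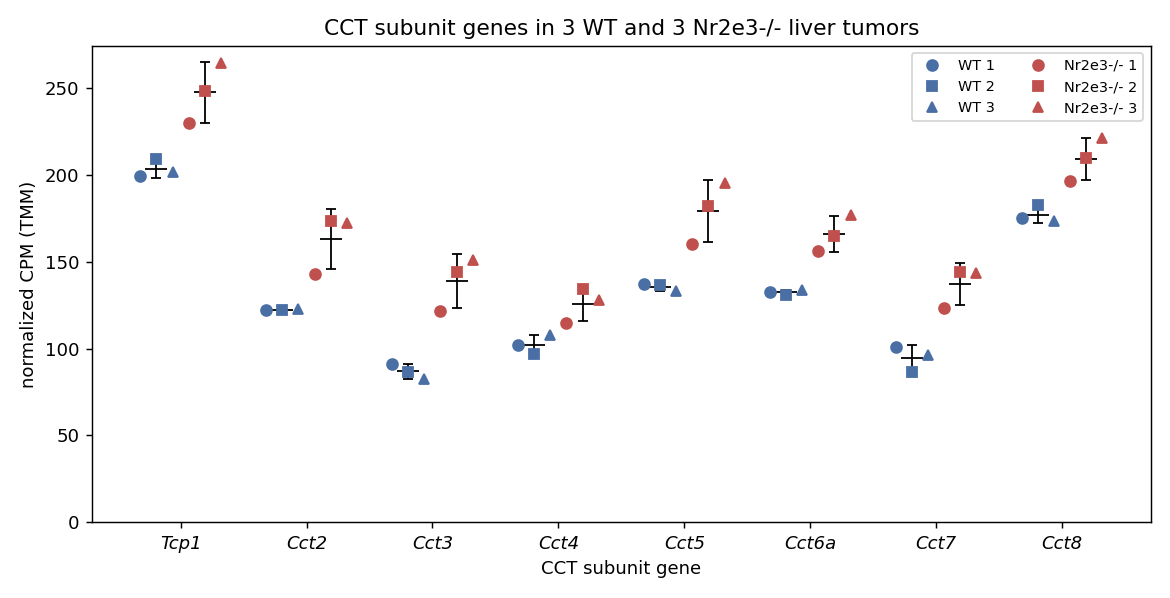
Normalized CPM (y axis) of the 8 CCT subunit genes (x axis) in 3 WT (blue) and 3 Nr2e3-/- (red) tumor libraries, 1 point per library, with black bars for the group mean and SD. For each gene the 3 red points lie above the 3 blue points, with Nr2e3-/- replicate 1 the lowest red point.

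The order of the Nr2e3-/- libraries is given for the members and is not read as a trait of CCT genes. The members were selected on this contrast, and replicate 1 was closer to WT than to its group over all genes. The share of all genes with replicate 1 lowest was not computed. Replicate 1 was the lowest Nr2e3-/- library for all 8 genes, replicate 3 the highest for 5 (Tcp1, Cct3, Cct5, Cct6a and Cct8) and replicate 2 for the other 3. Summed over the 8 genes, the libraries held 1061, 1052 and 1052 CPM in WT and 1247, 1401 and 1454 CPM in Nr2e3-/- tumors. The WT tumors were nearly level in total subunit RNA, and the Nr2e3-/- tumors were spread more widely. Without Nr2e3-/- replicate 1, the median log2 fold change of the members was 0.43. As a share of all raw counts the members took 0.108% to 0.111% in WT and 0.123% to 0.139% in Nr2e3-/- tumors.

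The subunit genes also varied little within a genotype. Their SD on the log2 CPM scale, pooled over both groups, was 0.064 for Cct6a to 0.127 for Cct3, with a median of 0.227 over all genes tested. These values placed them at the 3.2 to 20.5 percentiles of the within-group spread. The comparison was not matched for count level, and genes of low count have larger counting errors. The members were also selected on this contrast, so their small spread is not read as a trait of CCT genes. Each member had at least 1738 counts in every library. In the Nr2e3-/- libraries the coefficients of variation were 5.81% to 11%, against counting errors of 1.46% to 2.06%. In the WT libraries those of Cct2 (0.433%) and Cct6a (0.912%) were below their counting errors (1.71% and 1.64%), and that of Cct5 (1.70%) was close to it (1.62%). The counts therefore cannot resolve how level these WT libraries were for these genes.

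**Figure D2:**
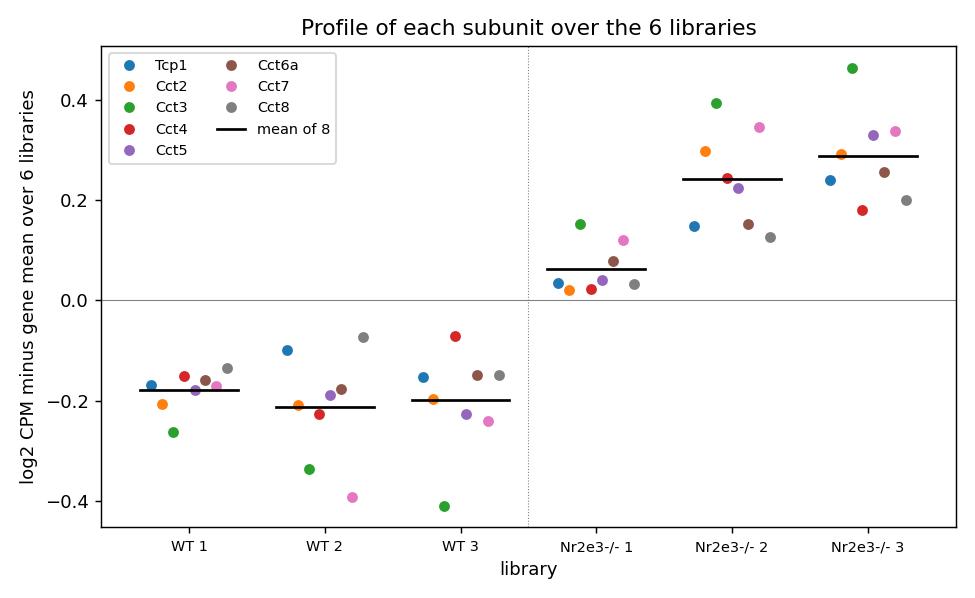
Deviation of each subunit gene from its own mean over the 6 libraries, in log2 CPM (y axis), by library (x axis), with 1 colour per gene and a black bar for the mean of the 8. The mean lies between -0.21 and -0.18 in the WT libraries and at 0.06, 0.24 and 0.29 in the Nr2e3-/- libraries. Cct3 (green) is farthest from it over the 6 libraries together, though not in WT replicate 2.

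Levels of the subunits were compared with each other per kilobase of the principal transcript. In WT tumors the order was Tcp1 (83.2 ± 2.11 CPM per kb, SD, n = 3), Cct6a (82.9 ± 0.756), Cct8 (74.0 ± 2.07), Cct5 (73.2 ± 1.25), Cct2 (62.5 ± 0.271), Cct3 (44.0 ± 2.24), Cct4 (41.1 ± 2.22) and Cct7 (38.8 ± 3.01). The ranges of neighbours did not overlap between Cct6a and Cct8, between Cct5 and Cct2 and between Cct2 and Cct3, and overlapped for the other neighbours. In Nr2e3-/- tumors Cct6a (104 ± 6.45 CPM per kb) and Tcp1 (101 ± 7.17) led and Cct7 (56.2 ± 4.84) and Cct4 (50.7 ± 3.94) were last, and among neighbours only Cct3 and Cct7 did not overlap. Cct6a had no annotated coding sequence in GENCODE vM21, so its coding length was taken as its longest reading frame. That frame filled the whole transcript used (1599 bases), and the lack of further sequence raises its value per kb. Per kilobase of coding sequence, Tcp1 (122 CPM per kb) and Cct8 (108) led in WT tumors, Cct6a had 82.9, behind Cct5 with 83.6, and Cct3 was last with 53.2. On merged exon length, which counts every annotated exon of a gene, the WT order was different, with Cct8 (57.4 CPM per kb), Cct5 (49.1) and Cct2 (47.9) ahead of Tcp1 (40.5) and Cct7 (14.0) and Cct3 (13.6) last. The ratio of the highest to the lowest level was taken within each library and averaged. It was 2.19 in WT and 2.05 in Nr2e3-/- tumors per kilobase of the principal transcript, where Cct6a was highest in every library but WT replicate 2. On coding length it was 2.30 in WT and 1.91 in Nr2e3-/- tumors, and on merged exon length 4.31 and 3.35.

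The share of each subunit in the summed CPM per kb of the 8 describes the makeup of the subunit RNA. The direction of its differences follows from the fold changes above and is not a separate result. Cct3 took 9.19%, 8.81% and 8.39% in the WT libraries and 10.4%, 10.9% and 11.1% in the Nr2e3-/- libraries. Cct7 took 7.75% ± 0.574 in WT and 8.65% ± 0.212 in Nr2e3-/- tumors (SD, n = 3 each). The groups did not overlap for either gene, with Nr2e3-/- higher. The share of Tcp1 was lower in Nr2e3-/- tumors, at 15.6% ± 0.295 against 16.7% ± 0.484, as was that of Cct8, at 13.5% ± 0.365 against 14.8% ± 0.444 (SD, n = 3 each), again without overlap. The shares of Cct2, Cct4, Cct5 and Cct6a overlapped between groups, and per kilobase of coding sequence the same members overlapped or did not.

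**Figure D3:**
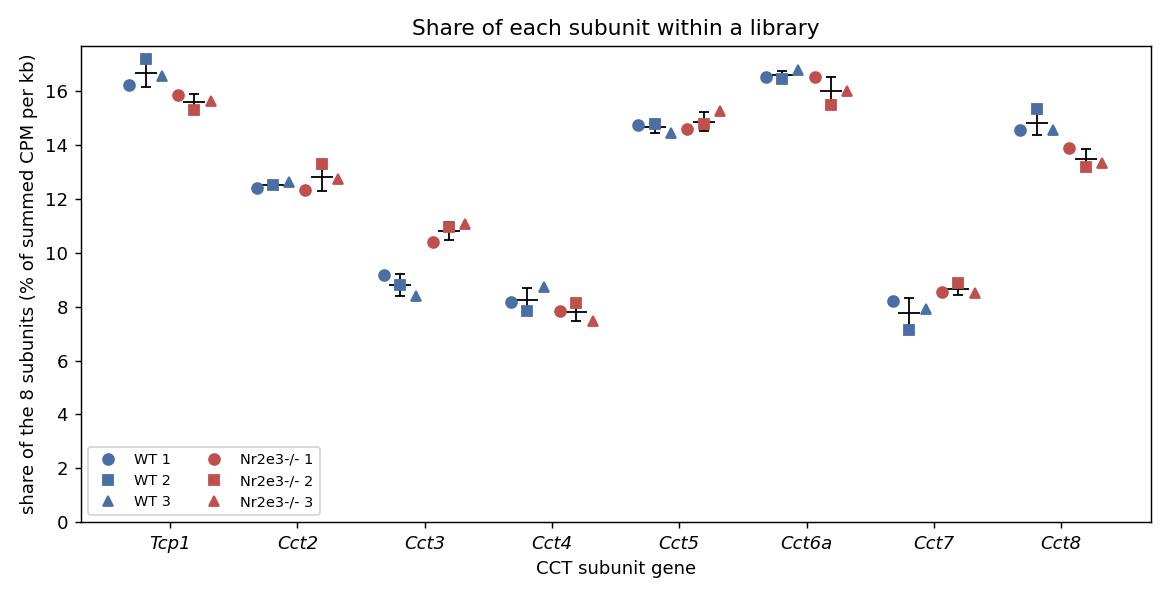
Share of each subunit gene (x axis) in the summed CPM per kb of the 8, in percent (y axis), with 1 point per library (blue WT, red Nr2e3-/-) and black bars for the group mean and SD. Red points lie above blue ones for Cct3 and Cct7 and below them for Tcp1 and Cct8.

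The other genes of the folding pathway were read from fixed lists. In edgeR, 11.8% of all genes were higher in Nr2e3-/- tumors at an unadjusted p-value under 0.05 and 9.72% were lower, while 0.0958% (13 genes) had a Benjamini-Hochberg adjusted p-value under 0.05. Among prefoldin subunits, which carry nascent actin and tubulin to CCT, 4 of 6 were higher and 2 lower, with a median log2 fold change of 0.20, which was 0.02 without Nr2e3-/- replicate 3. Vbp1, the subunit also called prefoldin 3, had the largest value. It had 14.9, 14.7 and 14.0 CPM in WT and 17.3, 18.6 and 19.8 CPM in Nr2e3-/- tumors (log2 fold change 0.35, SE 0.11, edgeR adjusted p = 0.152). It was the single prefoldin gene with an unadjusted p-value under 0.05, and Pfdn1 was lowest with -0.14. Of the related URI complex, Pdrg1 had 0.53 (edgeR adjusted p = 0.137) and Uri1 -0.26, with a median of 0.10 over 3 genes, which was 0.05 without Nr2e3-/- replicate 1, 0.06 without WT replicate 1 0.16 without Nr2e3-/- replicate 2 and 0.17 without WT replicate 3. Of the phosducin-like cochaperones, 3 of 4 were tested, with a median of 0.18 (from Pdcl3 at -0.16 to Pdcl at 0.21), which was 0.06 without Nr2e3-/- replicate 1 and 0.10 without WT replicate 3, and 0 had an unadjusted p-value under 0.05.

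The other chaperonin genes had a median log2 fold change of 0.31 over 5 of 7 tested, which was 0.11 without Nr2e3-/- replicate 1 and 0.48 without replicate 2. Hspd1 and Hspe1, the mitochondrial chaperonin and its lid, had the largest values. Hspd1 had 179.4, 192.3 and 194.0 CPM in WT and 282.4, 255.5 and 301.0 CPM in Nr2e3-/- tumors (log2 fold change 0.57, SE 0.11, edgeR adjusted p = 0.093). Hspe1 had 31.1, 27.2 and 27.2 CPM in WT and 48.2, 41.2 and 50.02 CPM in Nr2e3-/- tumors (log2 fold change 0.70, SE 0.12, edgeR adjusted p = 0.093). The adjusted p-values of both fell below 0.05 when Nr2e3-/- replicate 1 was left out and in the DESeq2 and limma-voom fits, and over 13 alternatives they ran from 0.000402 to 0.338 for Hspd1 and from 0.000314 to 0.338 for Hspe1. For both, replicate 2 and not replicate 1 was the lowest Nr2e3-/- library. Mkks and Bbs10, which help assemble the BBSome of cilia, had log2 fold changes of -0.00 and 0.31. Cct6b, the testis form of the zeta subunit, was near the limit of detection at 0.331 to 0.486 CPM in all libraries and had -0.15, and Cct8l1 and Bbs12 were too low to test.

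Of the clients, tubulins had a median log2 fold change of 0.31 over 11 of 15 genes tested, which was 0.20 without Nr2e3-/- replicate 2. At an unadjusted p-value under 0.05, 4 were higher in Nr2e3-/- tumors and 1 was lower, and 0 passed the adjustment in edgeR, while DESeq2 called 4. Tubb5, a widely expressed beta tubulin, had 83.0, 71.6 and 66.5 CPM in WT and 89.8, 100.9 and 83.8 CPM in Nr2e3-/- tumors (log2 fold change 0.31, edgeR adjusted p = 0.213). Tubb6 had 14.6 to 27.1 CPM in WT and 20.3 to 106.5 CPM in Nr2e3-/- tumors (log2 fold change 1.83, SE 0.56, groups overlapping). Tuba1c had 12.3 to 20.6 and 24.4 to 32.9 CPM (0.71, SE 0.21). The extremes were genes of low level, Tubb3 (2.76, SE 0.60, edgeR adjusted p = 0.100) with 0.0694 to 0.269 CPM in WT, and Tuba8 (-2.05, SE 0.57, edgeR adjusted p = 0.132). Tubb3 passed the filter on low counts through its Nr2e3-/- libraries, and Tuba8 through its WT libraries. Tubulin folding cofactors, which take tubulin on from CCT, had a median of -0.00 over 6 genes, from Arl2 at -0.26 to Tbcc at 0.55, and 2 (Tbcb and Tbcc) had an unadjusted p-value under 0.05.

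Actins and actin-related proteins had a median of 0.19, from Actr1b at -0.06 to Actg1 at 1.08, and 0 of 6 had an unadjusted p-value under 0.05. Actb had 454.0, 460.9 and 361.4 CPM in WT and 423.9, 749.1 and 574.4 CPM in Nr2e3-/- tumors, and its groups overlapped. The WD-repeat and other client genes, among them G protein beta subunits, Cdc20 and Vhl, had a median of 0.02 over 13 genes, from Gnb5 at -0.35 to Vhl at 0.29, and 0 had an unadjusted p-value under 0.05. With upper quartile normalization the median of this list was -0.06 and that of all genes -0.08, so its distance from all genes was kept while its sign was not. With 1 library left out it ran from -0.01 to 0.07, and the cofactor median from -0.03 to 0.03.

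The cytosolic Hsp70 and Hsp90 chaperones and their helpers, which act before or beside CCT, had larger values than the subunits. Their median log2 fold change was 0.74 over 13 genes, from St13 at 0.01, and 9 had an unadjusted p-value under 0.05, all with Nr2e3-/- higher. In edgeR 2 passed the adjustment. Hsp90aa1, the inducible Hsp90, had 41.0, 36.1 and 29.1 CPM in WT and 97.3, 104.4 and 120.2 CPM in Nr2e3-/- tumors (log2 fold change 1.60, SE 0.16, edgeR adjusted p = 0.034). Hsph1, an Hsp110 exchange factor for Hsp70, had 95.2, 84.0 and 60.6 CPM in WT and 225.8, 233.3 and 263.1 CPM in Nr2e3-/- tumors (log2 fold change 1.59, SE 0.18, edgeR adjusted p = 0.0454). Over 13 alternatives the adjusted p-values of Hsp90aa1 ran from 6.33e-15 to 0.251 and those of Hsph1 from 2.98e-12 to 0.292, and both calls were lost without WT replicate 1, 2 or 3 or Nr2e3-/- replicate 3 and with the replicate block (0.0996 and 0.104). Hsph1 also lost its call without Nr2e3-/- replicate 2, with upper quartile normalization and with at least 10 counts required in every library. Hsf1, which encodes the heat shock transcription factor, had 13.9, 13.8 and 13.8 CPM in WT and 16.5, 19.5 and 22.4 CPM in Nr2e3-/- tumors (log2 fold change 0.49, SE 0.14, edgeR adjusted p = 0.132). The proteasome core, another complex of many different subunits, had a median of 0.13 over 14 genes (0.09 without Nr2e3-/- replicate 3), from Psma7 at -0.02 to Psma1 at 0.25, and 1 of them had an unadjusted p-value under 0.05. In the proteasome core 13 genes were higher and 1 lower. All Nr2e3-/- libraries were above all WT libraries for 7 of the 14, compared with 13.9% of all genes. All 8 CCT differences except that of Cct8 were larger than that of Psma1. Nothing is read from this, because the CCT members were selected on this contrast.

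**Figure D4:**
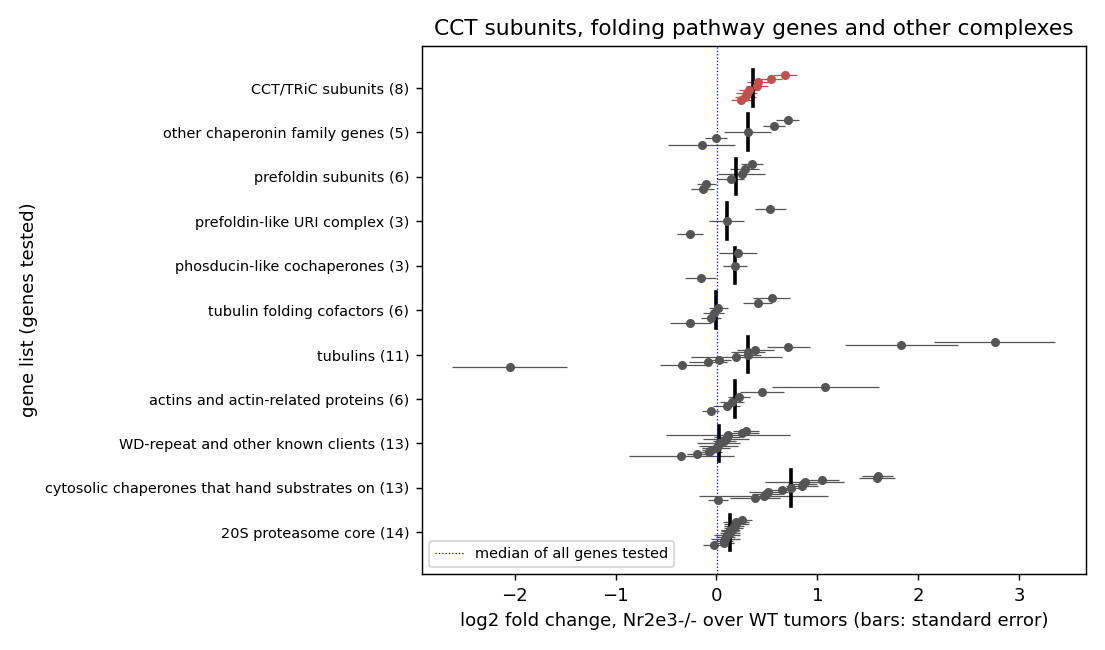
Log2 fold change of Nr2e3-/- over WT tumors (x axis) for each tested gene of 11 lists (y axis), with bars for the standard error, a black line for the list median and a dotted line for the median of all genes. The CCT subunits (red) lie between 0.24 and 0.68, and the cytosolic chaperones have the higher median, 0.74, in the fit shown.

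Markers of other cell types were read beside these values, and their part in the CCT differences was not tested. None of the 61 markers in the table was at 0 in any library. The 9 hepatocyte markers summed to 154798 to 188391 CPM in WT and 149158 to 170814 CPM in Nr2e3-/- tumors, most of it Alb, and 2 of them, Fgb (log2 fold change 1.15) and Hnf4a (0.50), were higher at an unadjusted p-value under 0.05 without overlap. The 9 proliferation markers summed to 36.4 to 49.0 and 32.2 to 65.2 CPM, and 0 of the 8 that were tested reached an unadjusted p-value under 0.05. Kupffer cell markers summed to 299 to 381 and 261 to 671 CPM, endothelial markers to 314 to 329 and 277 to 335 CPM, and stellate cell markers to 344 to 423 and 215 to 383 CPM, so these sums overlapped between groups, as did those of the bile duct markers, at 57.3 to 119 and 69.1 to 429 CPM. Within them, 2 endothelial genes had an unadjusted p-value under 0.05, Lyve1 (0.82) and Kdr (-0.61), and 2 bile duct genes, Epcam (1.58) and Spp1 (1.68), with overlapping groups. T and B cell markers summed to 4.19 to 8.86 and 2.33 to 5.20 CPM, and 3 of 7, the B cell genes Cd79a, Cd79b and Ms4a1, had an unadjusted p-value under 0.05 with Nr2e3-/- lower. Neutrophil markers summed to 1.60 to 3.08 CPM in WT and to 2.45 CPM in Nr2e3-/- replicate 1 but up to 24.7 CPM in the other Nr2e3-/- libraries, and both tested genes, S100a8 and S100a9, had an unadjusted p-value under 0.05. Red cell markers summed to 142 to 202 CPM in WT and 229 to 322 CPM in Nr2e3-/- tumors, a gap that rested on Alas2, the erythroid heme synthesis enzyme (log2 fold change 0.48, unadjusted p under 0.05). The globin genes alone overlapped, at 62.4 to 101 and 97.1 to 190 CPM with Hba-a1 and Hba-a2, whose counts are identical, taken once. In these lists the adjusted p-value of edgeR was under 0.05 for 0 genes, and DESeq2 called 1 or more in the hepatocyte, T and B cell, neutrophil, endothelial and bile duct lists.

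Exons of 4 members overlap those of a protein-coding gene on the opposite strand, and since the strand setting of the counting is not given in the sources used here, reads from such stretches cannot be told apart. Tcp1 shares 571 bases with Acat3, which is 11.4% of its merged exons, and 141 bases with Mrpl18. Acat3 had 110 to 124 CPM in WT and 122 to 162 CPM in Nr2e3-/- tumors with overlapping groups, and Mrpl18 had a log2 fold change of -0.06. Cct6a shares 452 bases (12.5%) with Psph, a serine synthesis enzyme with 7.80 to 12.4 CPM in WT and 13.4 to 22.0 CPM in Nr2e3-/- tumors, far below Cct6a itself (131 to 177 CPM). Cct7 shares 214 bases with Pradc1 (log2 fold change -0.03), and Cct8 shares 192 bases with Usp16 (0.34, groups overlapping). Tcp1 and Cct6a also hold small nucleolar RNA genes. Cct2, Cct3, Cct4 and Cct5 share no exon with another annotated gene.

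The profile of all tested genes over the 6 libraries was set against the mean profile of the 8 subunits by the root mean square distance on the log2 scale. Since the mean was made from the members, their own closeness is partly built in. Cct5 (0.025), Cct2 (0.031) and Cct6a (0.047) followed it most closely, 5 members were among the closest 1% of genes, and Cct3 was farthest, at rank 1543 of 13572. The median distance of all genes was 0.32. The genes outside the lists with the closest profile were Gtf2e2, a subunit of general transcription factor TFIIE (0.024), Prps1, a phosphoribosyl pyrophosphate synthetase (0.027), Zfp266 (0.037) and Gstcd (0.037). Gtf2e2, the closest of all, had 12.2, 11.4 and 11.6 CPM in WT and 14.2, 15.7 and 16.2 CPM in Nr2e3-/- tumors. Among listed genes, Vbp1 (0.042, rank 13) and Hsf1 (0.077, rank 160) came closest.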

How the data were processed

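RNA had been extracted from liver tumors with the miRvana kit and sequenced from TruSeq libraries. The authors used TopHat to align the single-end reads to mm10 and featureCounts to count them per gene, and the deposited values are raw counts. The labels gave each sample its genotype group, and dose, age and time point came from the study's methods. The members and lists were chosen with earlier results of these data known. The authors' normalized table, and their comparison table of fold changes and p-values, were not used. Among the counted genes, 27 symbols had been turned into dates, and older symbols were used for 2 listed markers.

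Counts were filtered with filterByExpr (minimum count 10, total 15), normalized by TMM and tested with the two-sided quasi-likelihood test of edgeR 4.0.16 in R 4.3.3, with Benjamini-Hochberg adjustment at 0.05. Log2 CPM used a prior count of 2. No covariate entered the fit. DESeq2 1.42.0, limma 3.58.1 (voom), other normalizations and filters, a replicate block, leaving out each library, and coding or merged exon lengths were alternatives. The merged exon length was added after the data were seen. Scripts were tested on simulated data. Lengths and overlaps came from GENCODE vM21. The genes named were the 8 members, of each pathway list those with the largest and smallest fold change and any with an adjusted p-value under 0.05, the 5 unlisted genes closest in profile (of which 1 is not reported here), and genes overlapping a member. The other list genes with values (among them Hspd1, Tubb5, Tbcb, Mkks, Bbs10, Actb, Hsf1 and the marker genes) were chosen after their values were seen.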

Additional observations from a re-analysis of the deposited data

How the results depend on the processing

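All 8 subunit genes had a positive log2 fold change with the main processing and in the 13 alternative fits, and their median ran from 0.28 with upper quartile normalization to 0.43 without Nr2e3-/- replicate 1. The count of all genes called, 13, depended on the processing. It was 8 with upper quartile normalization, 1093 with DESeq2, 2360 with limma-voom, 70 with no filter beyond 1 count, 7 with at least 10 counts in every library and 0 to 3022 with 1 library left out (0 without WT replicate 1 or 3 or Nr2e3-/- replicate 3, 2 without WT replicate 2, 3022 without Nr2e3-/- replicate 1). Over the pathway lists, 2 genes were called in the main fit, 1 with upper quartile normalization, 14 with DESeq2 and with limma-voom, 1 with at least 10 counts in every library and 0 to 17 with 1 library left out. The causes were not tested.

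With the replicate block, 0 genes were called in all and 0 in the pathway lists. Libraries with the same number deviated together with correlations of -0.077, 0.221 and 0.023 over genes, and not every library correlated best with its own number, so the numbers were not taken to pair the samples.

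List medians that moved by more than the spread between replicates were as follows. Upper quartile normalization also lowered the median of all genes, from 0.0073 to -0.0786. The lower medians with it are therefore not particular to these lists. It gave 0.275 for the CCT subunits, against 0.363 with the main processing. It gave 0.0182 for the URI complex, 0.0959 for phosducin-like cochaperones, -0.0886 for tubulin cofactors, -0.0626 for WD-repeat clients and 0.0498 for the proteasome core. The other chaperonin genes had a median of 0.42 with at least 10 counts in every library and 0.11 to 0.48 with 1 library left out. Leaving out 1 library gave 0.0191 to 0.287 for prefoldin, 0.0530 to 0.172 for the URI complex and 0.0570 to 0.222 for phosducin-like cochaperones. The median of the CCT subunits was below that of the other chaperonin genes with at least 10 counts in every library and without WT replicate 3 or Nr2e3-/- replicate 2. Without Nr2e3-/- replicate 3 the CCT median (0.31) was below that of the other chaperonin genes (0.33) and that of the tubulins (0.36). The highest over the lowest subunit level per kb was 4.31 in WT and 3.35 in Nr2e3-/- tumors on merged exon length, and 1.91 in Nr2e3-/- tumors on coding length. With 3 libraries per group, the order of neighbouring subunits was not resolved beyond the ranges given.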
